A study of Mus musculus with 19 samples.

Results

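Genes of neutrophils were examined in primary p53/MCA sarcomas of mice with and without lymphocytes. The 10 genes were picked by name and were S100a8, S100a9, Csf3r, Csf3, Ly6g, Retnlg, Ngp, Camp, Il1b and Trem1, and all 10 were found among the 48795 gene identifiers measured. RNA sequencing was available for 19 tumors, 1 library per tumor, 11 labelled Rag2-/- and 8 labelled Rag2+/-. Rag2 encodes a protein needed to assemble antigen receptors, so Rag2-/- mice lack mature T and B cells, while their innate cells, neutrophils included, remain. The Rag2+/- mice were littermates that form lymphocytes. All mice of both genotypes had received the same injections into the gastrocnemius muscle at 6 to 10 weeks of age. These were an adenovirus, Adeno-sgp53-Cas9, that brings Cas9 and a guide against Trp53 into cells of the muscle for a short time, and 300 µg of the carcinogen MCA (3-methylcholanthrene) in sesame oil. The mice were not treated further, and tumors were taken at about 70 to 150 mm3. Each tumor arose on its own in its host, so that every tumor is a separate animal with its own set of mutations, and whole tumor pieces, not sorted neutrophils, were sequenced.

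Neutrophils are short-lived white blood cells that mature in the bone marrow under granulocyte colony-stimulating factor, the product of Csf3, which acts through the receptor encoded by Csf3r. During maturation they first make the contents of their granules, such as the antimicrobial proteins encoded by Camp and Ngp, and later fill their cytoplasm with the calcium-binding proteins encoded by S100a8 and S100a9. In tumors they are recruited by chemokines and are one source, beside monocytes and macrophages, of interleukin 1 beta, the product of Il1b.

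Values are upper-quartile normalized FPKM (fragments per kilobase of transcript and per mega fragments), to which 0.1 was added before the log2, so that a gene with no fragment is listed at -3.32. The value of 1 fragment could be read from the low values, and it gave 24.8 to 33.7 M (mega) fragments on genes in 18 tumors and 5.23 M in S41, a Rag2-/- tumor. For a transcript of 1 kilobase, a single fragment stood for 0.208 normalized FPKM in S41 and for 0.0342 to 0.0853 in the others, and low genes are least precise in S41. Of the 19 tumors, 15 were in the Source Data of the study, and S41, S46 and S51 (Rag2-/-) and S56 (Rag2+/-) were not. Because whole tumors were measured, fewer cells of a type cannot be told apart from less RNA per cell.

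The level per transcript length fell in the order of S100a9, S100a8, Il1b, Csf3r, Retnlg, Trem1, Ngp, Camp, Csf3 and Ly6g, from a mean log2 value of 4.85 for S100a9 to -2.33 for Ly6g. Neighbors in this order mostly overlapped across tumors. S100a8, at a mean of 4.26, and Il1b, at 4.19, lay closer than their SDs of 1.24 and 0.83, as did Retnlg, at 1.33, and Trem1, at 1.11. Ly6g, the surface antigen by which mouse neutrophils are usually recognized, was listed at 0 in 8 of the 19 tumors, while S100a8, S100a9, Csf3r, Retnlg, Trem1 and Il1b were above 0 in every tumor. A defining marker of the cell type was thus near the limit of detection. The 10 genes also differed in how much they varied from tumor to tumor. The SD over the 19 tumors was 2.43 for Ngp and 2.16 for Camp, larger than for 99.1% and 98.1% of the 12826 genes with a mean log2 value above 0, whose median SD was 0.52. For 7 of the 10 genes it was above 1.23, the SD that 90% of those genes stay below, the exceptions being Csf3r, Trem1 and Il1b. S100a8 and S100a9, at 1.24 and 1.25, were only just above it. Camp, Csf3 and Ly6g have a mean log2 value under 0 and are not among the 12826 genes. They were listed at 0 in 1, 3 and 8 tumors, so their SDs are set beside those of genes at higher levels.

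**Figure D1:**
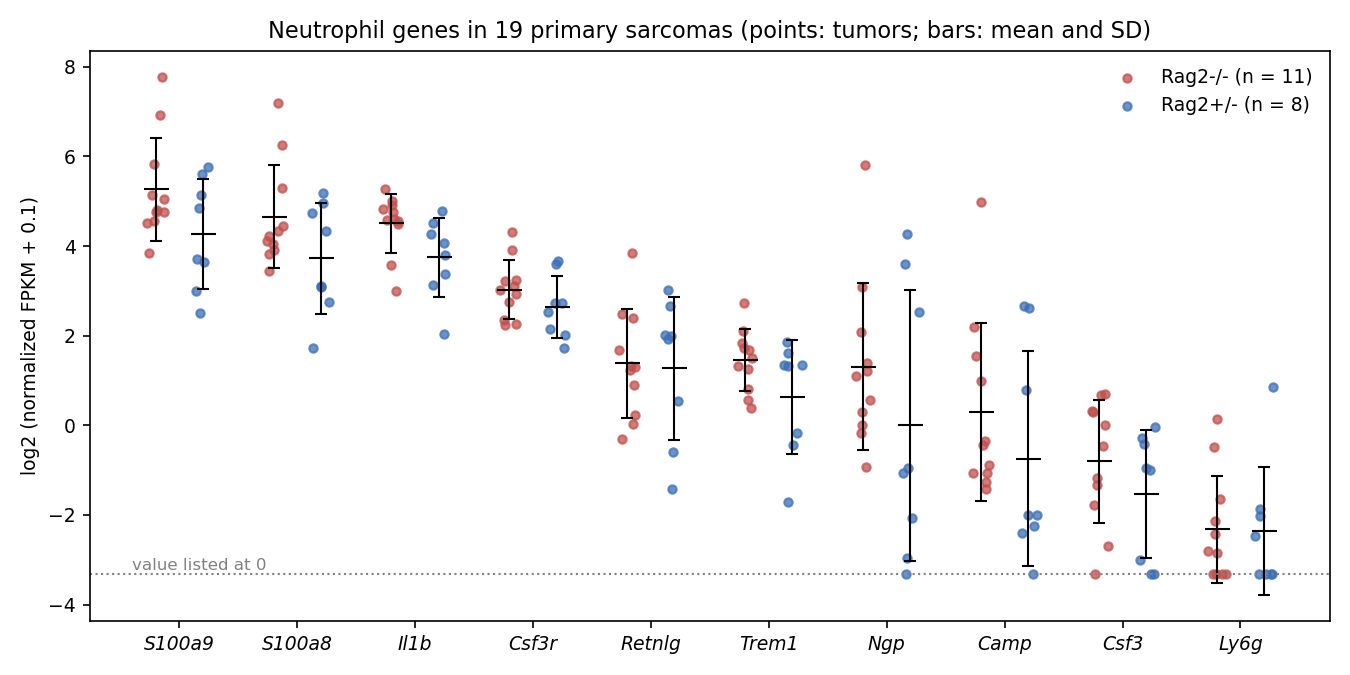
Levels of the 10 genes in the 11 Rag2-/- (red) and 8 Rag2+/- (blue) tumors, as log2 of the normalized FPKM plus 0.1. Each point is 1 tumor, the horizontal tick and bar are the mean and SD, and the dotted line is a value of 0. The genotypes overlap for all 10 genes, and Ngp and Camp have the widest spread.

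The S100 genes had the highest mean log2 values, although Il1b exceeded S100a8 in 11 of 19 tumors, by a median of 0.27 over all 19. S100a8 (ENSMUSG00000056054, GRCm38 chromosome 3, 90668978 to 90670035, plus strand) and S100a9 (ENSMUSG00000056071, chromosome 3, 90692632 to 90695721, minus strand) are neighbors with 22.6 kb between them, and their products pair to form calprotectin, a protein that binds calcium and zinc. S100a8 ranged from 3.45 to 7.19 with a median of 4.22 in Rag2-/- tumors and from 1.72 to 5.18 with a median of 3.72 in Rag2+/- tumors. S100a9 ranged from 3.85 to 7.78 with a median of 4.80 in Rag2-/- tumors and from 2.50 to 5.76 with a median of 4.28 in Rag2+/- tumors. For both genes S47 (Rag2-/-) was the highest, followed by S51 and S46, and S53 (Rag2+/-) was the lowest. The genotypes overlapped in the middle of the range, with 3 Rag2-/- tumors above every Rag2+/- tumor and 4 Rag2+/- tumors below every Rag2-/- tumor for both genes. These values rested on an estimated 34 to 1840 fragments for S100a8 and 68 to 2882 for S100a9. S100a9 was the higher of the pair in 19 of 19 tumors, and the gap between them was narrow. It had a median of 0.59 and an SD of 0.16, from 0.25 in S58 to 0.94 in S41. The mean gap of Rag2-/- tumors, 0.62 ± 0.16 (SD, n = 11), and that of Rag2+/- tumors, 0.54 ± 0.16 (SD, n = 8), differed by less than this spread (two-sided exact permutation test, p = 0.274).

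The 250 bases before the annotated start of both S100 genes are shown because their transcripts rose and fell together across tumors. They are RefSeq sequences of build GRCm38.p6, written along each gene from 5′ to 3′, and capitals mark ATTGC or its reverse complement GCAAT, the core of sites bound by CCAAT/enhancer-binding proteins, and TATAAA. The first lies at chr3:90668821-90669070 on the plus strand and the second at chr3:90695722-90695971 on the minus strand.
S100a8: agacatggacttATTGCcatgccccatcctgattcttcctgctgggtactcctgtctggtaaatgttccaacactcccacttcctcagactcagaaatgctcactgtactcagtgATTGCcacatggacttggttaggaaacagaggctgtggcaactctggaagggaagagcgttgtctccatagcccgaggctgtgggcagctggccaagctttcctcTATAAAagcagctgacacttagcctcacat
S100a9: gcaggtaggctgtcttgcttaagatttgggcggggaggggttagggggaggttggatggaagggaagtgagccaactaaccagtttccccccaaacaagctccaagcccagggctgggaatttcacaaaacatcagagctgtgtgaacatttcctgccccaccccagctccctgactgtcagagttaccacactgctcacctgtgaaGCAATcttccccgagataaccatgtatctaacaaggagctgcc
S100a8 held ATTGC at 238 and 135 bases before the start and TATAAA at 30 bases before it, and S100a9 held GCAAT at 43 bases before the start and no TATAAA. The half-site, searched on both strands in 250 bases, occurred in 23.1% of 32851 mouse promoters, and TATAAA, searched on the strand of the gene in the 100 bases next to the start, in 3.80%.

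Ngp and Camp code for proteins of the secondary granules that are made in the bone marrow before neutrophils are released. Ngp (ENSMUSG00000032484, chromosome 9, 110419747 to 110423012, plus strand) is neutrophilic granule protein, and Camp (ENSMUSG00000038357, chromosome 9, 109847379 to 109849617, minus strand) is the precursor of the antimicrobial peptide cathelicidin. They lie 570 kb apart. Ngp ranged from -0.93 to 5.80 with a median of 1.11 in Rag2-/- tumors and from -3.32 to 4.26 with a median of -1.01 in Rag2+/- tumors. Camp ranged from -1.42 to 4.99 with a median of -0.43 in Rag2-/- tumors and from -3.32 to 2.66 with a median of -2.01 in Rag2+/- tumors. Both were highest in S47 and listed at 0 in S55, a Rag2+/- tumor. The Rag2+/- tumors were spread widely, with S54 and S56 among the 3 highest of all 19 for both genes and S53, S55, S58 and S59 at or near the bottom, so that the genotypes overlapped although 5 Rag2+/- tumors lay below every Rag2-/- tumor for both genes. Camp rested on few fragments, a median of 12 in Rag2-/- and 2 in Rag2+/- tumors, against 47 and 10 for Ngp. In S47 an estimated 1721 fragments fell on Ngp and 609 on Camp. Ngp exceeded Camp in 15 of 19 tumors, by a median of 0.87.

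The promoters of the granule genes are shown for the same reason, in the same way. They lie at chr9:110419558-110419807 on the plus strand for Ngp and at chr9:109849457-109849706 on the minus strand for Camp.
Ngp: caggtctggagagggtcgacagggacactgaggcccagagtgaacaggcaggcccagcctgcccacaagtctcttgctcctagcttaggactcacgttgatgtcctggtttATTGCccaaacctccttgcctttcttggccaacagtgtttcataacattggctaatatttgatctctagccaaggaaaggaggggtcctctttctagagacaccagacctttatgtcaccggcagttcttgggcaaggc
Camp: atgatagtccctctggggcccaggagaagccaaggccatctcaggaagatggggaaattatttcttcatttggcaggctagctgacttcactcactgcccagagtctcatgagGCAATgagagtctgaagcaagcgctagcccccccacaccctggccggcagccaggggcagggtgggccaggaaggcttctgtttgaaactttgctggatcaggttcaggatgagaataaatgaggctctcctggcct
Ngp held ATTGC at 139 bases before the start, Camp held GCAAT at 137 bases before it, and neither held TATAAA. Of the 9 genes with a RefSeq promoter, all but Csf3, 7 held the half-site, against 23.1% of all promoters. TATAAA was held by 3 of the 9, against 3.80%. Ly6g has more than 1 promoter listed, and TATAAA lay in only 1 of them, at 99 bases before the start. Members were counted per gene and the background per promoter. The core motif of PU.1, GAGGAA, searched on both strands in the same 250 bases, was held by 4 of the 9, against 23.3%. The GENCODE vM21 gene models begin upstream of the RefSeq starts, so that 161 bases of the Camp, 93 of the S100a8 and 61 of the Ngp window lie inside them. A match of these letters is not evidence that a protein binds there.

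Retnlg and Ly6g mark maturing and mature neutrophils. Retnlg (ENSMUSG00000022651, chromosome 16, 48872621 to 48874496, plus strand), which codes for a resistin-like secreted protein of mouse neutrophils, ranged from -0.30 to 3.85 with a median of 1.30 in Rag2-/- tumors and from -1.41 to 3.03 with a median of 1.96 in Rag2+/- tumors. S47 was again the highest and S53 the lowest, but the Rag2+/- tumors S56 and S60 came next. Ly6g (ENSMUSG00000022582, chromosome 15, 75155240 to 75159126, plus strand) ranged from -3.32 to 0.14 in Rag2-/- tumors, with a median of -2.81, and from -3.32 to 0.86 in Rag2+/- tumors, with a median of -2.90. S56 and S47 were the highest for Ly6g, with an estimated 19 and 24 fragments, and the median tumor of either genotype had 1. Ly6g belongs to a family of near-identical genes between which fragments may have been divided, which makes its values uncertain.

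The ligand Csf3 and its receptor did not have the same pattern. Csf3 (ENSMUSG00000038067, chromosome 11, 98701263 to 98703629, plus strand) ranged from -3.32 to 0.71 with a median of -0.45 in Rag2-/- tumors and from -3.32 to -0.04 with a median of -0.98 in Rag2+/- tumors. S48, S51, S43, S45 and S42, all Rag2-/-, were the highest, and S41, S56 and S60 were listed at 0. At most 60 estimated fragments supported it, and in S41 the value of 3 fragments, 0.442 normalized FPKM, was above the median Csf3 level of 0.415. Csf3r (ENSMUSG00000028859, chromosome 4, 126024550 to 126044440, plus strand), the receptor by which neutrophils and their precursors respond, was measured well, with 127 to 1285 estimated fragments. It ranged from 2.23 to 4.31 with a median of 3.01 in Rag2-/- tumors and from 1.73 to 3.67 with a median of 2.62 in Rag2+/- tumors. S51 and S46 were the highest and S56 the lowest. The 3 lowest tumors, S56, S53 and S54, were all Rag2+/-, and S51 and S46 (both Rag2-/-) lay above every Rag2+/- tumor, with the other tumors of both genotypes in between.

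Il1b and Trem1 belong to inflammatory activation of myeloid cells rather than to the granule program. Il1b (ENSMUSG00000027398, chromosome 2, 129364570 to 129371139, minus strand) ranged from 2.99 to 5.27 with a median of 4.60 in Rag2-/- tumors and from 2.03 to 4.78 with a median of 3.93 in Rag2+/- tumors. S51, S48, S49 and S42, all Rag2-/-, were above every Rag2+/- tumor, S56 (Rag2+/-) was the lowest and S50 (Rag2-/-) came next. Trem1 (ENSMUSG00000042265, chromosome 17, 48232768 to 48246924, plus strand), a receptor that amplifies inflammatory signals in neutrophils and monocytes, ranged from 0.38 to 2.72 with a median of 1.51 in Rag2-/- tumors and from -1.72 to 1.85 with a median of 1.33 in Rag2+/- tumors. S41, the shallow library, was the highest for Trem1 and S56 the lowest, with S52 and S60 next. Il1b overlaps the annotated antisense gene Il1bos and Trem1 the gene AC241601.2, both on the opposite strand. Whether the counting used strand is not stated, so reads of such partners cannot be told apart.

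**Figure D2:**
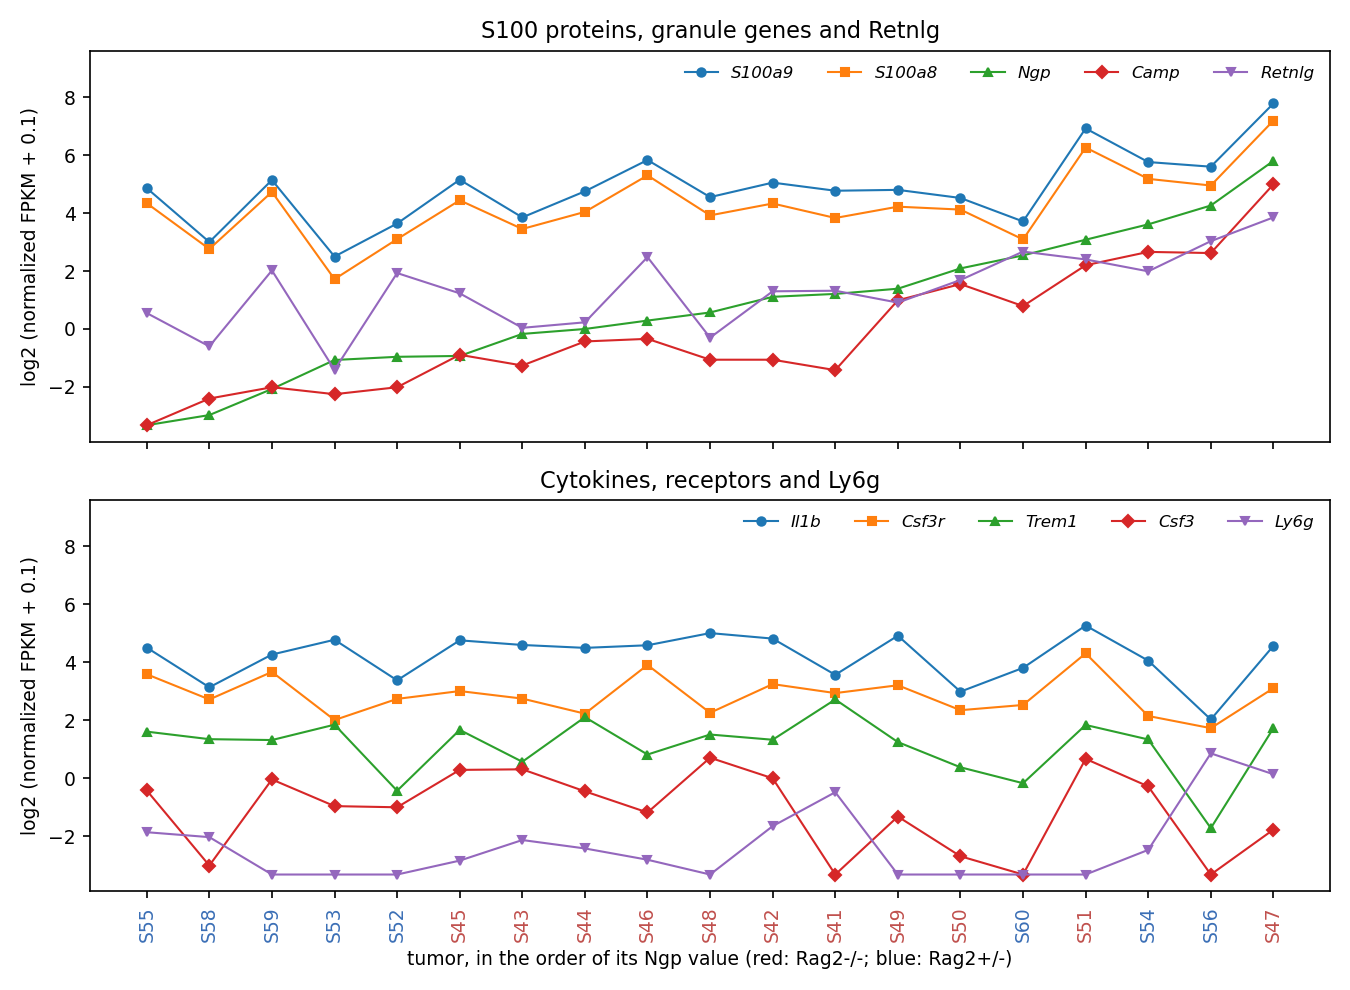
The 10 genes in each of the 19 tumors, as log2 of the normalized FPKM plus 0.1, with tumors in the order of their Ngp value and codes in red for Rag2-/- and blue for Rag2+/-. Lines join the values of 1 gene to aid the eye. S100a8 and S100a9 run in parallel, Camp follows Ngp, and S56 is high for Ngp and Camp but the lowest for Il1b, Csf3r and Trem1.

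Tumors were therefore not simply rich or poor in all 10 transcripts. S47 was among the 3 highest tumors for 6 of the 10 genes, S100a8, S100a9, Ngp, Camp, Retnlg and Ly6g, and S51 for 5. S58 was among the 3 lowest for 6 genes and S53 for 5, while only S41 and S44 were above S53 for Trem1. S56 was among the 3 highest for 4 genes, Ngp, Camp, Retnlg and Ly6g, and among the 3 lowest for 4 others, Csf3, Csf3r, Trem1 and Il1b.

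The genotypes were then compared to ask whether these transcripts differ between tumors of hosts with and without lymphocytes. The mean was higher in Rag2-/- tumors for 10 of 10 genes, where 57.2% of all 25050 genes above 0 in any tumor, and 56.2% of the 12826 genes with a mean log2 value above 0, had the higher mean there. The 10 genes are correlated with each other, so these are not independent observations. No member passed the test across all genes. Of the 7 members with a mean log2 value above 0, 0 had an adjusted p under 0.05 by limma (Benjamini-Hochberg over 12826 genes), where 4 genes, or 0.0312%, did, and 1 of the 7, Il1b, had an unadjusted p under 0.05, where 16.3% of genes did. Camp, Csf3 and Ly6g fell below that level and were tested without it, again with 0 of 10 members called, where 34 of 25050 genes, or 0.136%, were. All 10 genes overlapped between genotypes, as did nearly all genes measured, 0.0559% of which were fully separated.

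The largest difference relative to its standard error among the 10 was that of Il1b. The mean log2 value of Il1b was 4.51 ± 0.66 (SD, n = 11) in Rag2-/- and 3.75 ± 0.88 (SD, n = 8) in Rag2+/- tumors, or 0.76 higher in the former (p = 0.0431 by two-sided exact permutation, and adjusted p = 0.453 over 25050 genes). By that test 1 of the 10 members had an unadjusted p under 0.05, where 10.8% of genes did and 5.11% did with the higher value in Rag2-/- tumors. After adjustment 0 of the 10 passed it, where 18 genes, or 0.0719%, did. The difference of Il1b fell to 0.52 without S56 and to 0.53 in the 15 tumors of the Source Data, with two-sided exact permutation p = 0.112 and p = 0.125. S100a9 was at 5.27 ± 1.15 (SD, n = 11) against 4.27 ± 1.23 (SD, n = 8), which is 1.99-fold higher in Rag2-/- tumors for the value plus 0.1 (exact permutation p = 0.0883). For S100a8 the log2 difference was 0.91 (exact permutation p = 0.117). Trem1 differed by 0.80 (exact permutation p = 0.0898). The difference of Trem1 fell to 0.47 without S56 (exact permutation p = 0.232), to 0.47 with a pseudocount of 1 and to 0.34 in the 15 tumors of the Source Data.

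The granule genes had the largest errors, and their differences depended on how low values were treated. Ngp differed by 1.31 with a standard error of 1.05, from 1.31 ± 1.86 (SD, n = 11) against 0.00 ± 3.02 (SD, n = 8), and the exact permutation p was 0.256. Camp differed by 1.04 with a standard error of 0.95 and an exact permutation p of 0.315, and Csf3 by 0.75 with a standard error of 0.63 and p = 0.260. With a pseudocount of 1 in place of 0.1 these differences were 0.43 for Ngp, 0.36 for Camp and 0.26 for Csf3, and with 0.01 they were 2.02, 1.65 and 1.35. Without S47 Ngp differed by 0.86 and Camp by 0.57, and without S55, where both are listed at 0, by 0.83 and 0.67. The differences were larger without S54 (1.82 for Ngp and 1.52 for Camp), without S56 (1.92 and 1.52) and in the 15 tumors of the Source Data (1.84 and 1.57), with an exact permutation p of 0.0907 or more in each. Csf3r differed by 0.39 (exact permutation p = 0.230), and by -2.05e-04 in the 15 tumors of the Source Data. Retnlg, at 0.10, and Ly6g, at 0.03, had means that nearly coincided (exact permutation p of 0.872 and 0.962). Genotype accounted for between 0.0157% of the variance for Ly6g and 21.5% for Il1b, so that most of the spread lay among tumors of 1 genotype.

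**Figure D3:**
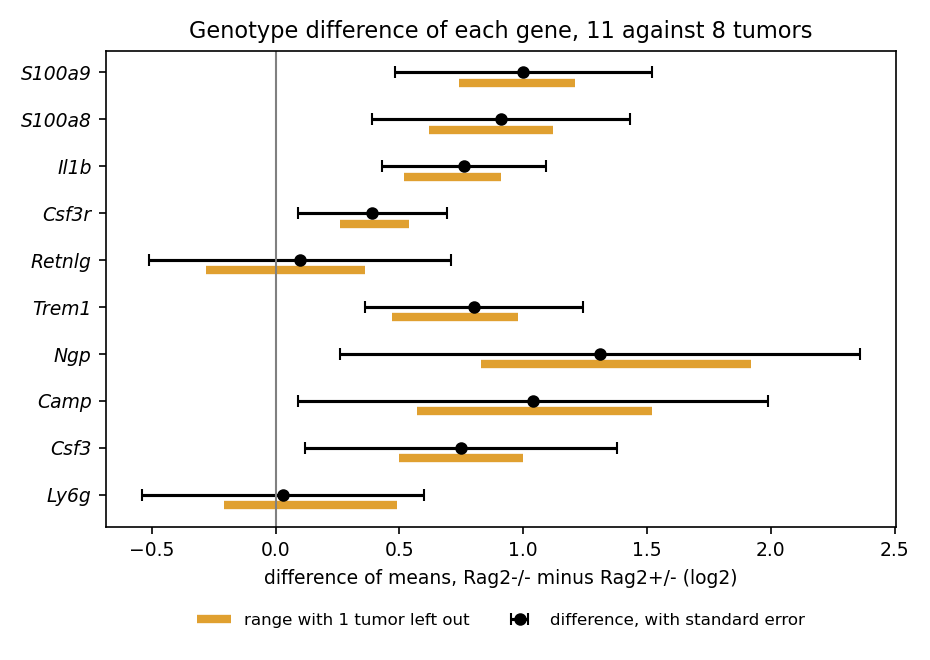
Difference of the mean log2 value, Rag2-/- minus Rag2+/-, for each gene with its standard error from limma without a filter (black), and the range of the difference when 1 of the 19 tumors is left out (orange). Every difference is above 0, those of Retnlg and Ly6g cross 0 when single tumors are left out, and Ngp has the widest error.

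Which of the genes move together from tumor to tumor was examined over all 45 pairs. For 9 pairs both Pearson's r and Spearman's rho had an adjusted permutation p under 0.05, and all 9 were positive. S100a8 and S100a9 had r = 0.99 and rho = 0.98 (permutation p of 1.00e-05 for each, the smallest that 100000 permutations can give, adjusted p = 2.25e-04). Without S47 and S53, the tumors farthest from the median, r was still 0.99. Within Rag2-/- tumors r was 0.99 and within Rag2+/- tumors 0.99. Ngp and Camp had r = 0.94 and rho = 0.92, with the same p, and r was 0.91 without S47 and S55. Within Rag2+/- tumors r was 0.98 and rho 0.95, and within Rag2-/- tumors r was 0.91 but rho was 0.64 with an adjusted permutation p of 0.227. These 2 pairs passed with any 1 of the 19 tumors left out.

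Another pair joined the cytokines. Csf3 and Il1b had r = 0.77 (permutation p = 1.30e-04, adjusted p = 0.00195) and rho = 0.71 (permutation p = 9.30e-04, adjusted p = 0.0139). Their r was 0.82 within Rag2-/- tumors, 0.71 within Rag2+/- tumors and 0.72 without S41 and S56, and rho was 0.77, 0.68 and 0.63, with an adjusted permutation p of 0.106, 0.339 and 0.110 in these smaller sets. In the 15 tumors of the Source Data rho was 0.60 with an adjusted permutation p of 0.275. When each of the 19 tumors was left out in turn, the pair passed 18 times and was lost without S51. Trem1 and Il1b had r = 0.65 but rho = 0.39 (adjusted permutation p of 0.0177 and 0.288), and r fell to 0.26 without S52 and S56.

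The other 6 pairs linked Retnlg with S100a8, S100a9, Ngp and Camp, and Camp with S100a8 and S100a9, with r between 0.68 and 0.74. Whether they passed depended on single tumors. Without S47, S51, S53, S56 or S58 none of the 6 passed, with r then between 0.56 and 0.74 and rho between 0.52 and 0.63. Their r was between 0.76 and 0.89 within Rag2-/- tumors and between 0.51 and 0.70 within Rag2+/- tumors. It was between 0.65 and 0.71 in the 15 tumors of the Source Data and between 0.51 and 0.60 without the 2 farthest tumors. Their rho was between 0.53 and 0.75 within Rag2-/- tumors (adjusted permutation p of 0.106 or more). Within Rag2+/- tumors rho was between 0.60 and 0.71 (adjusted permutation p of 0.339 or more). Counted in the same way, 1 pair, S100a8 with S100a9, passed within the 11 Rag2-/- tumors. Both that pair and Ngp with Camp passed within the 8 Rag2+/- tumors and in the 15 tumors of the Source Data, each a test on fewer tumors. Between S100a8, S100a9, Ngp, Camp and Retnlg on one side and Csf3, Il1b and Trem1 on the other, sets named after the values were seen, 0 of 15 pairs passed, and rho ran from -0.36 to 0.23. Csf3r passed with none of the 9 other genes, with rho from -0.16 for Ngp to 0.47 for S100a9. Its rho with the ligand gene Csf3 was 0.28 (adjusted permutation p = 0.538).

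**Figure D4:**
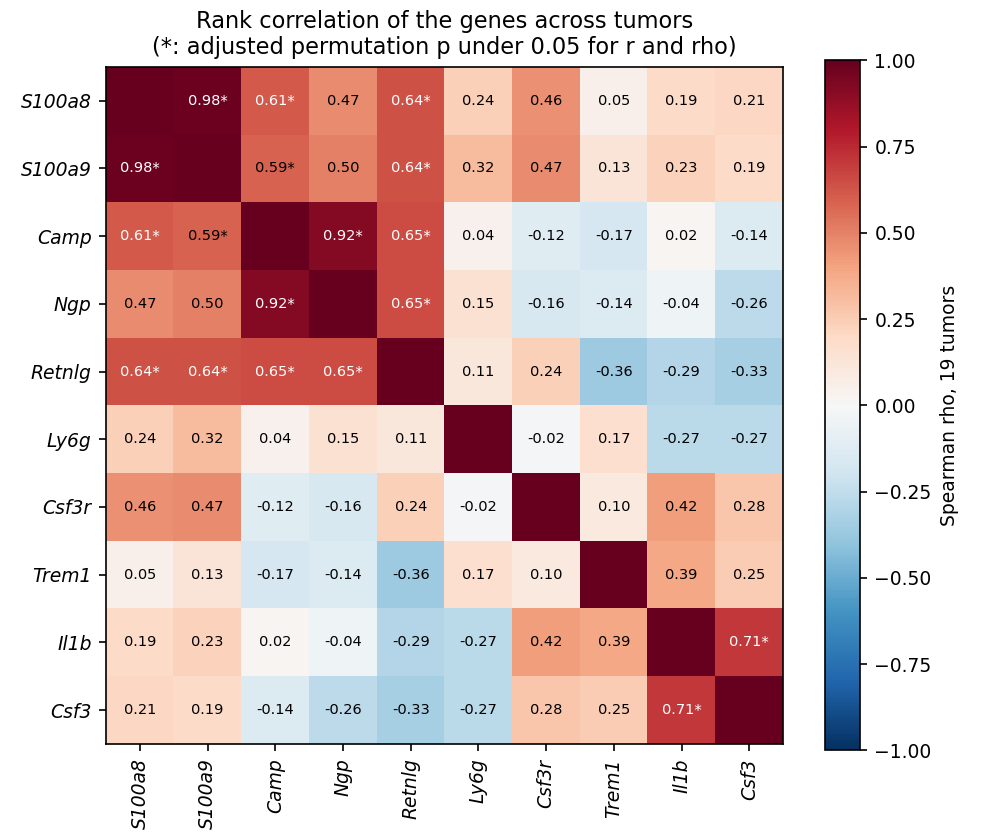
Spearman's rho between the 10 genes over the 19 tumors, in color and in numbers. An asterisk marks the 9 pairs with an adjusted permutation p under 0.05 for both r and rho, which lie among S100a8, S100a9, Camp, Ngp and Retnlg and between Il1b and Csf3.

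Other cells of the tumor express some of these genes, and markers of 8 cell types and the depth were set beside each gene, 90 relations in all. For 2 of them both r and rho had an adjusted permutation p under 0.05. Csf3r rose with the summed level of 10 macrophage markers (r = 0.71, adjusted permutation p = 0.0255, and rho = 0.80, adjusted permutation p = 0.00450), with rho of 0.62 within Rag2-/- and 0.93 within Rag2+/- tumors and r of 0.59 without the 2 farthest tumors. This relation was lost without S46, S48 or S56, where r was between 0.64 and 0.71. Macrophage markers were abundant in every tumor, at a sum of 1201 to 3600 normalized FPKM in Rag2-/- and 621 to 1891 in Rag2+/- tumors, and 0 of the 10 were called between genotypes. Csf3r also had r = 0.71 with the 5 monocyte markers (adjusted permutation p = 0.0255), but rho was 0.63 with an adjusted p of 0.106, and r fell to 0.49 without the 2 farthest tumors.

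Retnlg rose with the skeletal muscle markers (r = 0.70, adjusted permutation p = 0.0255, and rho = 0.75, adjusted permutation p = 0.0157). Its rho with them was 0.56 within Rag2-/- and 0.98 within Rag2+/- tumors, and r was 0.63 without the 2 farthest tumors. Leaving out S43, S48, S51, S56 or S60 ended the call, with r then between 0.67 and 0.69. The muscle markers ran from a sum of 271 to 86009 normalized FPKM in Rag2-/- and from 1585 to 134518 in Rag2+/- tumors, and 7 of the 8 were lower in Rag2-/- tumors at an unadjusted limma p under 0.05, where 16.3% of genes tested had such a p, with 0 called. Trem1 had r = -0.49 and rho = -0.40 with the muscle markers (adjusted permutation p of 0.280 and 0.395), with rho of 0.15 within Rag2-/- and -0.90 within Rag2+/- tumors. The 3 tumors lowest for Trem1, S56, S52 and S60, had muscle sums of 134518, 65972 and 105975 normalized FPKM. S100a8, S100a9, Ngp and Camp had rho of 0.42, 0.36, 0.42 and 0.46 with the muscle markers (adjusted permutation p of 0.335 or more). Within Rag2-/- tumors their rho was 0.73, 0.59, 0.63 and 0.85, and within Rag2+/- tumors 0.55, 0.60, 0.62 and 0.64. The part of muscle content in these values, or in those of Retnlg and Trem1, was not tested. With the erythroid markers of blood, Retnlg had r = 0.49 and rho = 0.55 (adjusted permutation p of 0.280 and 0.316), which did not pass. S100a8 and S100a9 had rho of 0.47 and 0.49 with them over all tumors (adjusted permutation p of 0.319 for each), 0.90 and 0.87 within Rag2-/- tumors and 0.24 and 0.26 within Rag2+/- tumors. Ngp and Camp had rho of 0.48 and 0.49 with them over all tumors (adjusted permutation p of 0.319 for each), 0.33 and 0.56 within Rag2-/- tumors and 0.83 and 0.69 within Rag2+/- tumors. The part of blood content in the values of these 5 genes was not tested. Eosinophil markers summed to at most 2.34 normalized FPKM in any tumor and keratinocyte markers to at most 6.73, the latter in S47. Epx was listed at 0 in 15 tumors and Krt5 in 16. With the eosinophil markers Retnlg had r = 0.50 and rho = 0.64 (adjusted permutation p of 0.280 and 0.106). With the keratinocyte markers S100a8 and Ngp had r of 0.34 and 0.05 (adjusted permutation p of 0.452 and 0.974). Within Rag2-/- tumors r was 0.73 and 0.80, with rho of 0.53 and 0.37, and within Rag2+/- tumors r was -0.12 and -0.71. The part of both cell types in these values was not tested. Of the mast cell markers 0 of 5 and of the erythroid markers 0 of 5 were called between genotypes by limma, while 5 of 6 T cell markers were called lower in Rag2-/- tumors when genes below the level tested were included, where 0.136% of genes were called.

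**Figure D5:**
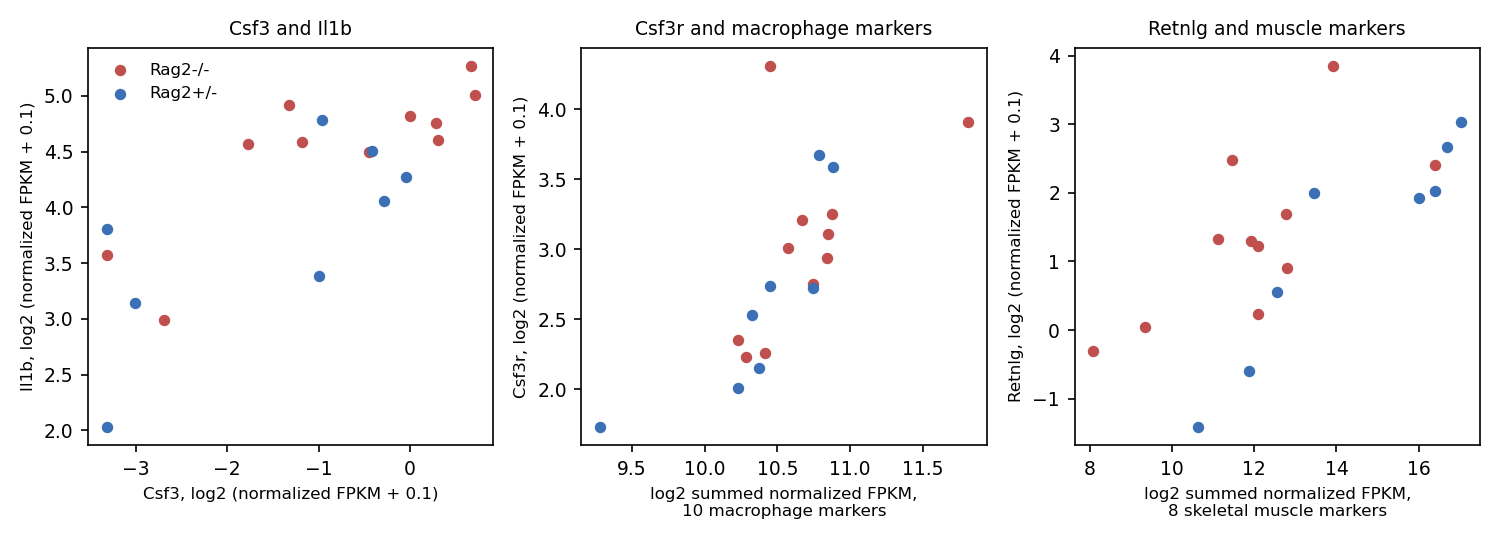
Relations across tumors that the text describes, Rag2-/- in red and Rag2+/- in blue, each point 1 tumor. The left panel sets Il1b against Csf3, the middle panel Csf3r against the log2 summed level of 10 macrophage markers and the right panel Retnlg against that of 8 skeletal muscle markers. All 3 rise to the right, with r of 0.77, 0.71 and 0.70.

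The genes whose rank order over the 19 tumors was most like that of 4 members were looked up among the 12819 genes other than members with a mean log2 value above 0, as a description without a test. For Csf3r they were P2rx4 (rho = 0.92), Clec4a1 (0.92), Unc93b1 (0.91), Alox5ap (0.90) and Spi1 (0.90). The highest rho of Csf3r with another member was 0.47. That is a maximum over 9 genes rather than 12819, so the values cannot be weighed against each other. Spi1 codes for PU.1, a transcription factor of myeloid cells, Clec4a1 for a lectin receptor of myeloid cells and Unc93b1 for a chaperone of Toll-like receptors. Il1b was most like Il6 (rho = 0.80), Cxcl1 (0.79), Rgl1 (0.78), Dbnl (0.74) and Zfp36 (0.74), among them an inflammatory cytokine, a neutrophil chemokine and a protein that destabilizes cytokine transcripts. Csf3 was most like Rnf19a, Nrg1 and Nfkbiz (rho = 0.73 for each), Cxcl1 (0.70) and Tfcp2 (0.70), while its rho with the member Il1b was 0.71. Cxcl1 thus stood near both cytokines. For S100a8 the nearest were Rab3d (rho = 0.81), Wfdc21 and Dcxr (0.76), and Dcaf12 and Ddt (0.75), all below its rho of 0.98 with S100a9.

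Other genes of the same pathways were taken from 6 lists of 79 genes in all, 61 of which had a mean log2 value above 0. Of these 61, 0 were called between genotypes and 7, or 11.5%, had an unadjusted limma p under 0.05, all 7 higher in Rag2-/- tumors, where 16.3% of all genes tested did in either direction. Their median difference was 0.27, against 0.06 over all genes tested, and the lowest adjusted p was 0.301. Among chemoattractants and their receptors 0 of 10 were called. Cxcl1, which draws neutrophils through Cxcr2, averaged 4.78 ± 1.09 (SD, n = 11) in the Rag2-/- and 3.88 ± 1.49 (SD, n = 8) in the Rag2+/- group, and Cxcr2 itself at 0.64 ± 0.90 (SD, n = 11) against -0.35 ± 1.72 (SD, n = 8). Of the other granule genes 0 of 6 were called, with Lcn2, which codes for an iron-siderophore-binding protein, at 2.66 ± 2.10 (SD, n = 11) and 2.51 ± 1.66 (SD, n = 8). Mmp8, neutrophil collagenase, had a lower mean in Rag2-/- tumors, with a difference of -1.28 (adjusted p = 0.309 by limma).

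Among other genes of mature neutrophils 0 of 11 were called. Slfn4, an interferon-induced gene of myeloid cells, differed most, by 1.59 (adjusted p = 0.301 by limma), and Itgam, the integrin chain known as CD11b, differed by 0.42. Clec4d, a lectin receptor of myeloid cells, differed by -0.56. In the Csf3 axis 0 of 12 were called. Csf1, the macrophage growth factor, differed by 0.68 and Il17rc, a receptor chain for interleukin 17, by 0.47, while Stat3 and Cebpb, which act downstream of the Csf3 receptor, differed by -0.03 and 0.04 (adjusted p between 0.301 and 0.931 by limma). In the interleukin 1 axis 0 of 11 were called, with a median difference of 0.40. Nlrp3, which builds the inflammasome that leads to the maturation of interleukin 1 beta, differed by 0.67 and Il18 by 0.68, whereas Il1rn, the antagonist of the interleukin 1 receptor, differed by -0.09. Among partners of S100a8, S100a9 and Trem1 0 of 11 were called. Treml2 differed by 0.70, and the other S100 genes S100a6, S100a10 and S100a11 by 0.61, 0.29 and 0.38, each with an adjusted p of 0.301 or more by limma. Cd36, a scavenger receptor, differed by -0.85, from 5.04 against 5.89 (adjusted p = 0.498 by limma). Of the monocyte markers 4 of 5 had the higher mean in Rag2-/- tumors, where 56.2% of all genes tested did. Ccr2 and Plac8, 2 of the 5, had an unadjusted limma p under 0.05, where 16.3% of all genes tested did. After adjustment 0 of 5 were called by limma. Plac8 had the largest difference, at 7.40 ± 0.96 (SD, n = 11) against 6.35 ± 1.06 (SD, n = 8), Ccr2 was at 5.10 ± 0.34 (SD, n = 11) against 4.38 ± 0.61 (SD, n = 8), and F13a1 was at 4.61 in both groups. Their part in the differences of Il1b, Trem1 and the S100 genes was not tested.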

How the data were processed

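RNA of 19 tumors was sequenced as paired reads of 150 bases, 1 library per tumor. The authors used the Omicsoft aligner on mouse genome B38, with at most 2 mismatches, and Ensembl R86 gene models, and deposited FPKM as log2 values after upper-quartile normalization. The submitters' processing notes name Trimmomatic, STAR and HTSeq on mm10 instead, and the form of the values is that of the former. The lowest deposited value of every tumor is the log2 of 0.1. Count tests were not applied to these normalized values, and FPKM were recovered by undoing the log.

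Fragments were estimated with the longest GENCODE vM21 transcript of each gene, and 75.2% to 89.6% of the low values checked were whole to within 0.05 fragments. Intervals for counting error were not computed. All 19 tumors entered each comparison, grouped by the genotype label. Single genes were compared by two-sided exact permutation of the difference of means over 75582 splits (smallest p 1.32e-05) and by limma (3.58.1, under R 4.3.3, trend on intensity) for genes with a mean log2 value above 0, with Benjamini-Hochberg adjustment at 0.05. Relations used 100000 permutations, adjusted over the 45 pairs or the 90 relations with marker sums. Other steps ran in Python 3.11.15 with scipy 1.17.1, pandas 2.3.3 and numpy 2.4.6. The limma script was tested on simulated data.

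The members, lists, motifs and tests were chosen with earlier results of these data known, and the motif letters with the promoters in view. Named were the members and, per list, called genes or else up to 3 of the highest mean and 2 of the largest difference with a mean above 0, plus the 5 genes nearest to 4 members. Epx, Krt5, F13a1, the early granule genes and those named for S46 and S51 were chosen after their values were seen. Alternatives were the 15 tumors of the Source Data, each tumor left out, pseudocounts of 1 and 0.01, quantile normalization, a shift to equal medians, other filters on low values, limma without the trend and the exact test for every gene. Leaving out single tumors for the relations was added after seeing the data, except for S41. No promoter of Csf3 and no protein sequence was used here.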

Additional observations from a re-analysis of the deposited data

Results flagged for a closer look

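Among the 8 Rag2+/- tumors, S56 stood apart for Ly6g, at a log2 value of 0.86, while the other 7 had at most 4 estimated fragments. It rests on an estimated 19 fragments. Of the 10 genes this was the one with a Rag2+/- tumor so far from the rest, a check that chance passes in about 1 of 20 groups of normal values. That rate does not apply here, since 4 of the 8 values were tied at the lowest value of the data and 10 genes were looked at. The 11 Rag2-/- tumors are too many for this check. S56 was also among the 3 highest tumors for Ngp, Camp and Retnlg, had the highest summed level of skeletal muscle markers, at 134518 normalized FPKM, and the lowest of macrophage markers, at 621. The part of these in the Ly6g value was not tested.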

How the results depend on the processing

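Over the alternatives tried, 0 members and 0 pathway genes were called by limma, and the lowest adjusted p of any member was 0.16. By the exact test the number of members at an unadjusted p under 0.05, which was 1, became 0 in the 15 tumors of the Source Data and ranged from 0 to 2 with single tumors left out. Il1b passed in 10 of its 24 alternatives, with p between 0.00752 and 0.125. Where it did not pass, its difference was 0.68 to 0.77, apart from 0.52 without S56 and 0.53 in the 15 tumors. S100a9 and Trem1 passed in 1 of 24 each. The directions of Csf3, S100a8, S100a9, Ngp, Camp, Trem1 and Il1b held in all 24. Csf3r changed sign to -2.05e-04 in the 15 tumors. With a pseudocount of 1, Retnlg changed sign to -4.69e-04 and Ly6g to -0.03. With single tumors left out Retnlg ranged from -0.28 to 0.36 and Ly6g from -0.21 to 0.49. The number of genes called, which was 4, was 15 in the 15 tumors, 34 without a filter, 0 by limma with a mean above 2 (1676 at an unadjusted p under 0.05), 18 by the exact test, and 3 to 7 with single tumors left out, highest without S51 or S56. The number of pairs that moved together, which was 9, was 1 within Rag2-/- tumors, 2 within Rag2+/- tumors, 2 in the 15 tumors, 2 without the 2 farthest tumors and 2 to 9 with single tumors left out, lowest without S51. Except where fewer tumors or genes were tested, the cause was not tested. No paired analysis was possible because the labels number each mouse singly and do not say which mice shared a litter. Depth limits Csf3, Camp and Ly6g most.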

Other observations

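Genes made earlier in neutrophil development than Camp and Ngp, chosen here after their values were seen, differed in their levels. Elane, neutrophil elastase, was listed at 0 in 10 of 19 tumors, Mpo, myeloperoxidase, in 7 and Ms4a3, a gene of granulocyte-monocyte progenitors, in 13, while the protease genes Prtn3 and Ctsg were at 0 in 2 and 3 tumors. Elane, Mpo and Ms4a3 were highest in S47, at log2 values of 2.42 for Elane, 1.94 for Mpo and 0.47 for Ms4a3, the tumor that was also highest for Ngp, Camp and Ltf, the gene of lactoferrin, at 3.69. Ctsg was highest in S47 too, at 1.09, but Prtn3 was highest in S51, at 3.89.

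Some other genes of the lists, picked after their values were seen and with no test, had their highest level in S46 or S51. Hp, which codes for haptoglobin, reached 11.49 in S46 against a median of 3.54, and Lrg1, Wfdc21, G0s2 and Cd36 were also highest there, at 8.61, 6.16, 6.17 and 9.66. Lcn2, Acod1 and Clec4e were highest in S51, at 7.03, 6.68 and 7.02, against medians of 2.04, 2.05 and 2.59. Both tumors are Rag2-/-, are not in the Source Data of the study, and came next after S47 for S100a8. S46 also had the highest summed level of macrophage markers, at 3600 normalized FPKM, and S51 that of monocyte markers, at 1080, and their part in these levels was not tested.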
